A study of Mus musculus with 25 samples.

Results

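The calcium release and reuptake genes are 10 genes whose products take part in the release, storage, buffering or reuptake of calcium ions in muscle. They are Atp2a1, Atp2a2, Casq1, Casq2, Ryr1, Ryr3, Cacna1s, Trdn, Jph1 and Pvalb, chosen by name for their roles, out of 26180 genes with a curated RefSeq transcript. Each gene was located in the mouse assembly GRCm38 (mm10), and the Spin1 and H3K4me3 peaks were read at its transcription start sites (TSS±1 kb, any curated transcript), in the gene body and within 50 kb on each side. Spin1 is a protein that binds histone H3 trimethylated at lysine 4 (H3K4me3), a mark of promoters. Both were measured by chromatin immunoprecipitation and sequencing (ChIP-seq) in primary myoblasts, cultured muscle precursor cells that were purified by preplating from the limb muscle of C57BL/6 mice (C57BL/6 N in the study's methods) at an age of 10 days, with no Spin1 allele named. Preplating thins out fibroblasts, which attach to the dish sooner. Spin1 was precipitated with a custom antibody (number 5867) and H3K4me3 with an antibody whose label names H3K4me while the sample title names H3K4me3. There was 1 library per antibody and no replicate, so no spread between cultures can be given and no difference was tested. The 22 RNA-seq samples of the series and the input library were not analysed here.

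In a muscle fiber, an action potential is sensed by the L-type calcium channel of the transverse tubule, which opens the ryanodine receptor of the adjoining sarcoplasmic reticulum, and the released calcium starts contraction. Junctional proteins hold both membranes together, calsequestrin stores calcium in the lumen, parvalbumin binds it in the cytosol of fast fibers, and SERCA pumps return it to the store. Most of these proteins are known from differentiated fibers, whereas myoblasts are their dividing precursors.

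H3K4me3 was found at the promoters of 10 of the 10 genes and Spin1 at 8 of them. Trdn and Pvalb had H3K4me3 but no Spin1 peak at TSS±1 kb. Among all 26180 curated genes, 50.7% had Spin1 and 61.9% had H3K4me3 in the same window. Among the 21000 protein-coding genes, these shares were 56.7% and 68.0%, and 56.7% had both. Of the protein-coding genes with H3K4me3, 83.3% also had Spin1. A peak in the list says that the culture as a whole was enriched over input, and a mark in all cells cannot be told apart from a strong mark in some of them.

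The sequence just upstream of the start is shown for 4 genes with differing peaks, and for both starts of Pvalb, 1 of which carries H3K4me3. They are the 250 bases before the TSS, 5′ to 3′ on the coding strand, from RefSeq (GRCm38.p6), whose table had a sequence for 6 of the 10 genes. Atp2a1 (chr7:126463074-126463323, minus strand) had the widest H3K4me3 peak and Casq1 (chr1:172219896-172220145, minus strand) the narrowest. Ryr1 (chr7:29125152-29125401, minus strand) had H3K4me3 and Spin1 of nearly the same extent. Cacna1s (chr1:136052561-136052810, plus strand) had a weak Spin1 peak. Pvalb is shown for its RefSeq Select start (chr15:78204238-78204487, minus strand) and for its upstream start (chr15:78206401-78206650, minus strand). Capitals mark 3 hexamers. They are CAGCTG, a palindrome, then CACCTG, read as CAGGTG on the other strand, and lastly GGGCGG, read as CCGCCC there.
Atp2a1: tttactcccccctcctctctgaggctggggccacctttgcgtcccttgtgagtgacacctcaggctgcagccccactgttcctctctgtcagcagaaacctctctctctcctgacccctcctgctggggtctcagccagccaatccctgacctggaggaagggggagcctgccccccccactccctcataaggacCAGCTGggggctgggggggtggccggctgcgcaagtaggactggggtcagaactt
Casq1: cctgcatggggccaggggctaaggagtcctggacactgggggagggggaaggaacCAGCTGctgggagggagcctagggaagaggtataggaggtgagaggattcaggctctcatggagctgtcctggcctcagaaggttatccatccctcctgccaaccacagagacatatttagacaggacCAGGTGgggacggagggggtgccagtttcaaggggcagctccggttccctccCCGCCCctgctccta
Ryr1: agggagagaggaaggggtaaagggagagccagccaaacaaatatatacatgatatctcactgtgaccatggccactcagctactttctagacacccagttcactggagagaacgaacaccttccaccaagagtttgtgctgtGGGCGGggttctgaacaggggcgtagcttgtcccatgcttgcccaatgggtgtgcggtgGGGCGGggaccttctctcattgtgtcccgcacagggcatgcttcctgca
Cacna1s: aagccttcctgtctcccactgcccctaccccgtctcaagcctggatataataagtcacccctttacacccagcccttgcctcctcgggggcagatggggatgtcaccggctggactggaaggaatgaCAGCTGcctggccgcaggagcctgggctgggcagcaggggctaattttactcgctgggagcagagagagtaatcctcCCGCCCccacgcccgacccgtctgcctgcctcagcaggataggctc
Pvalb, Select start: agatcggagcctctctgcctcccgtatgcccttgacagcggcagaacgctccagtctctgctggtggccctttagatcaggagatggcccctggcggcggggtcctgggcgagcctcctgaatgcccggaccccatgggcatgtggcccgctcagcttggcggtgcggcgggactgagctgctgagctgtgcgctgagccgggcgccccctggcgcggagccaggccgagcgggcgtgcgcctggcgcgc
Pvalb, upstream start: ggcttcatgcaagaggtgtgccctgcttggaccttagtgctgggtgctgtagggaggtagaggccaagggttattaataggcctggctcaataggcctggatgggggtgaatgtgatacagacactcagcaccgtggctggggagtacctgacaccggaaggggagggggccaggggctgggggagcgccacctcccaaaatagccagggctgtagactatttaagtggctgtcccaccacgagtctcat

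CAGCTG, an E-box that myogenic bHLH factors can bind, was present in 3 of these 6 genes, and in 15.1% of the 16496 protein-coding promoters with a sequence. In Atp2a1 it lay at −55 to −50 and in Cacna1s at −123 to −118, in both cases under a Spin1 and an H3K4me3 peak. In Casq1 it lay at −195 to −190, under H3K4me3 but outside the Spin1 peak. The E-box CACCTG was found in Casq1 alone among the 6 genes (19.1% of all promoters), at −67 to −62 and under neither peak. GGGCGG, the core of a GC box, was found in Casq1, Ryr1 and Cacna1s (49.2% of all promoters), with 2 matches in Ryr1. The hexamer TATAAA (13.2% of all promoters), the narrow MEF2 pattern searched (0.473%) and the SRF CArG box (1.54%) had no match in the 6 genes. Looser MEF2-type sites were not counted. Casq2, whose sequence is not printed, holds TTATTTTTAG, and the upstream Pvalb start, outside these counts, holds TTATTAATAG. Both strands of the 300 bases from 250 before to 50 after the TSS were searched. A single start per gene was used, for Pvalb the Select start. A match is a description of the letters only. With 6 of 10 genes, a comparison of the gene set with all promoters is void, and the values stand for each gene alone.

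The ratio of observed to expected CpG over 300 bases around the TSS (250 before and 50 after) was 0.14 in Atp2a1, 0.15 in Casq1, 0.30 in Cacna1s, 0.37 in Ryr1, 0.41 in Casq2 and 0.73 at the Select start of Pvalb. The median over 16496 protein-coding genes was 0.611. Atp2a1 and Casq1 thus fall among the 3464 genes with a ratio below 0.2, of which 5.54% had Spin1 and 9.44% had H3K4me3 at the promoter. Cacna1s falls in the bin from 0.2 to 0.35, with 17.2% and 31.1%, and Ryr1 and Casq2 in the bin from 0.35 to 0.5, with 40.7% and 61.6%. These 5 genes had both peaks. Pvalb falls in the bin from 0.65 to 0.8, where 84.8% of 2725 genes had Spin1, and it had none. The upstream Pvalb start, with a ratio of 0.20, had neither peak.

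**Figure D1:**
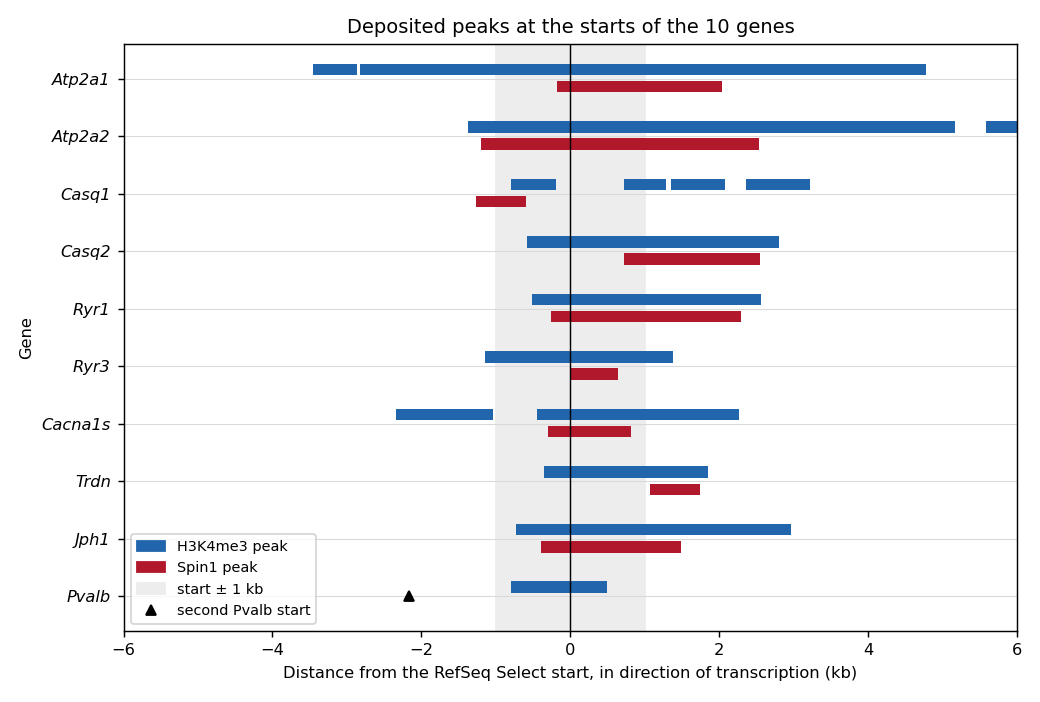
H3K4me3 peaks (blue) and Spin1 peaks (red) of the 10 genes, drawn to scale against the distance from the RefSeq Select start in kb, with transcription to the right and TSS±1 kb in grey. The Casq1 start lies between narrow H3K4me3 peaks, the Spin1 peaks of Casq2 and Trdn begin downstream of the start, and the upstream H3K4me3 peak of Cacna1s lies at the promoter of its neighbour Ascl5.

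The calcium pumps had the widest H3K4me3 peaks of the 10 genes. Atp2a1 encodes SERCA1, the pump of fast fibers (chr7:126445860-126463073, minus strand, 23 exons). Its H3K4me3 peak was 7598 bp wide and reached from −2819 to 4778 bp around the TSS, over exons 1 to 5, which is wider than in 96.5% of the 14281 protein-coding genes with such a peak. The Spin1 peak inside it was 2224 bp wide, close to the median of 2293 bp, with a score of 731.0. MACS computes the score from its p-value against input (−10 times the log10), and 15.8% of the 11911 protein-coding genes with Spin1 had a lower one. Spin1 thus covered 29.3% of the H3K4me3 peak of Atp2a1, and 1.98% of genes with both marks had a smaller covered share. Across these 11903 genes, the median covered share was 66.2%, with quartiles of 56.6 and 75.3%.

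Atp2a2 encodes SERCA2, the pump of slow fibers, heart and non-muscle cells (chr5:122453513-122502225, minus strand, 20 exons). It had the widest Spin1 peak of the 10 genes, with 3737 bp from −1207 to 2529 bp, wider than in 88.5% of genes with Spin1. Its H3K4me3 peak of 6532 bp was wider than in 93.8% of genes, and 57.2% of it was covered by Spin1. Both peaks had a score of 3100, at which scores pile up in these lists and give no order. The H3K4me3 peak was thus wider at Atp2a1 (7598 bp) than at Atp2a2 (6532 bp), while the Spin1 peak was narrower (2224 and 3737 bp). A further H3K4me3 peak of 759 bp in intron 3 of Atp2a2 had a score of 80.51. It lay within 1 kb of 2 GENCODE starts, of Gm43360 and Gm43361.

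The calsequestrin genes, which encode the calcium buffers of the lumen, differed more. Casq1, the form of fast fibers (chr1:172209894-172219895, minus strand, 11 exons), had no peak over its TSS. A Spin1 peak of 682 bp with a score of 103.6 lay at −1273 to −592 bp, and 0.613% of genes with Spin1 had a lower score. H3K4me3 at Casq1 was split into 4 narrow peaks. They lay at −792 to −188 bp (605 bp wide, score 91.34), 726 to 1280 bp (555 bp, 55.14), 1350 to 2073 bp (724 bp, 73.31) and 2356 to 3212 bp (857 bp, 174.0). The peak with the highest score at TSS±1 kb was wider than in 0.56% of genes, and the lowest score in the whole H3K4me3 list was 50.03. Spin1 overlapped only the upstream peak and covered 33.2% of it.

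Casq2, the form of heart and slow fibers (chr3:102086415-102146514, plus strand, 11 exons), had 1 H3K4me3 peak of 3381 bp over the TSS, near the median of 3249 bp and with a score of 3100. Its Spin1 peak (1819 bp, score 550.3) lay wholly in intron 1, from 722 to 2540 bp downstream of the TSS, and covered 53.8% of the H3K4me3 peak. It touched the window of TSS±1 kb only with its upstream end. A weak H3K4me3 peak farther down intron 1 (717 bp, score 58.4) had no Spin1.

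The ryanodine receptors are the release channels of the sarcoplasmic reticulum. Ryr1, the form of skeletal muscle (chr7:29003340-29125151, minus strand, 106 exons), had H3K4me3 from −519 to 2561 bp (3081 bp, score 3100) and Spin1 from −258 to 2288 bp (2547 bp, score 968.9). Spin1 covered 82.7% of the H3K4me3 peak, the largest share of the 10 genes and more than in 89.4% of genes with both marks. Ryr3, which is expressed in brain and in developing muscle (chr2:112631380-113217083, minus strand, 104 exons), spans 585704 bp and was the longest gene of the set. It had 1 peak of each kind in the gene and 50 kb around it. The H3K4me3 peak was 2530 bp wide with a score of 3100. The Spin1 peak was 651 bp wide with a score of 112.7 and was the narrowest of the 8 Spin1 peaks. Only 0.378% of genes with Spin1 had a narrower peak and 1.49% a lower score. Spin1 covered 25.7% of the H3K4me3 peak of Ryr3, a smaller share than in any other of the 8 genes.

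Cacna1s encodes the pore-forming subunit of the L-type channel and serves as the voltage sensor (chr1:136052811-136119822, plus strand, 44 exons). Its H3K4me3 peak was 2714 bp wide (score 1871) and its Spin1 peak 1126 bp (score 253.3), both over the TSS. A narrower Spin1 peak was found in 8.35% of genes with Spin1 and a lower score in 6.46%. Spin1 covered 41.5% of the H3K4me3 peak. The next H3K4me3 peak, from −2341 to −1041 bp, lay at the promoter of Ascl5 (score 724.5) and had no Spin1.

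Jph1 encodes junctophilin 1, which spans the gap between transverse tubule and sarcoplasmic reticulum (chr1:16994938-17097889, minus strand, 5 exons). It had H3K4me3 over 3696 bp (score 3100) and Spin1 over 1876 bp (score 1856), and Spin1 covered 50.8% of the H3K4me3 peak. After Atp2a2, this was the highest Spin1 score of the set, and 34.1% of genes with Spin1 had a lower one. Trdn encodes triadin, which anchors calsequestrin to the ryanodine receptor (chr10:33083483-33476709, plus strand, 38 exons). H3K4me3 covered its start from −354 to 1842 bp (2197 bp, score 1128). The nearest Spin1 peak (669 bp, score 107.4) lay inside this H3K4me3 peak but in intron 1, from 1075 to 1743 bp, and began 1052 bp from the second annotated TSS. This peak is outside TSS±1 kb of the curated starts, so Trdn is not counted as occupied by Spin1, although 2 GENCODE starts of Trdn lie within 1 kb of it. A narrow H3K4me3 peak without Spin1 (505 bp, score 59.97) lay at exon 8, within 1 kb of 1 GENCODE start of Trdn.

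Pvalb encodes parvalbumin, the cytosolic calcium buffer of fast fibers (chr15:78191112-78206400, minus strand, 4 exons). It has 2 curated starts. The Select start at position 78204237 lay under an H3K4me3 peak of 1296 bp (score 1416) from −798 to 497 bp, and 5.1% of genes had a narrower one. The upstream start at position 78206400 was 1365 bp from this peak. No Spin1 peak was found in the gene. The nearest one lay 28799 bp from the Select start, at the promoter of the neighbouring gene Ift27 (2441 bp, score 2973).

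**Figure D2:**
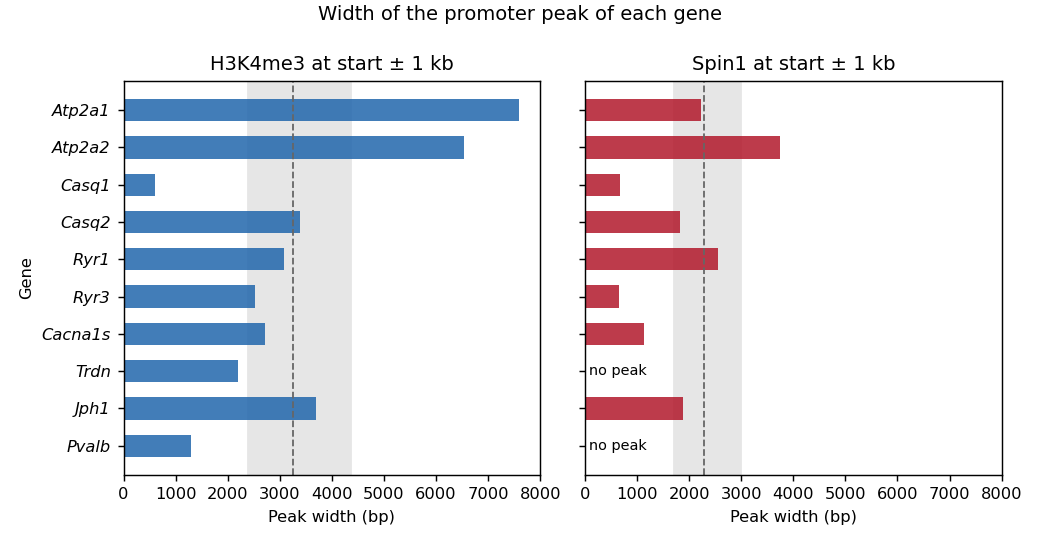
Width in bp of the H3K4me3 peak (left) and the Spin1 peak (right) at TSS±1 kb of each gene, taking the peak with the highest score. Grey bands show the quartiles and dashed lines the median over protein-coding genes with a peak: Atp2a1 and Atp2a2 exceed the upper H3K4me3 quartile of 4374 bp, and Casq1, Ryr3 and Cacna1s fall below the lower Spin1 quartile of 1706 bp.

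Across the set, the median width of the 8 Spin1 promoter peaks was 1847.5 bp and the median score 641, compared with 2293 bp and 2990 over all protein-coding genes with Spin1. 2 of the 8 peaks, those of Atp2a2 and Ryr1, were wider than the median of all genes, and 1 reached a score of 3100, as did 48.9% of all genes. With the 50% of peaks with the highest scores in each list, Spin1 was left at 2 of the 10 promoters, those of Atp2a2 and Jph1, and at 42.9% of all protein-coding genes. For H3K4me3, the median width was 2897.5 bp compared with 3249 bp, 4 of 10 peaks were wider than the median, and 6 reached 3100, compared with 89.7%. Spin1 covered a median of 46.1% of the H3K4me3 peak. The Spin1 peak lay wholly inside an H3K4me3 peak in 7 of 8 genes (92.2% of all), with Casq1 as the exception. Its center lay downstream of the TSS in the same 7 genes (80.6% of all).

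Outside curated promoters, Spin1 was found in the bodies of 2 of the 10 genes, Ryr1 and Trdn (the latter near GENCODE starts, as described above). H3K4me3 was found there in 5, namely Casq1, Casq2, Ryr1, Atp2a2 and Trdn (the last 2 near GENCODE starts). Among protein-coding genes, 9.03% had such a Spin1 peak and 21.3% such an H3K4me3 peak. Long genes offer more room for a peak, and 4 members (Ryr1, Ryr3, Trdn and Jph1) are at least 100 kb long. Of the 2317 protein-coding genes of that length, 27.0% had Spin1 and 56.8% had H3K4me3 in the body.

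Ryr1 held 4 H3K4me3 peaks at no curated promoter, a number that 13.5% of genes of at least 100 kb reached or passed. In the direction of transcription, the peaks lay at 62.9 to 63.8 kb (921 bp, score 208.0, exons 64 to 65), 81.0 to 82.5 kb (1470 bp, score 1217, exon 84), 83.9 to 85.8 kb (1871 bp, score 3100, exons 85 to 87) and 105 to 106 kb (1316 bp, score 1827, exon 91). No predicted RefSeq transcript and no GENCODE transcript starts within 1 kb of them. The peak over exons 85 to 87 alone carried Spin1, in a narrow peak of 861 bp (84326 to 85186 bp from the TSS) with a score of 148.0. Another H3K4me3 peak (599 bp, score 60.99) lay at the promoter of Gm26604, a gene within Ryr1.

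The central 300 bases of the intragenic Spin1 peak are shown because they are the farthest Spin1 signal from the start in any of the 10 gene bodies. They lie at chr7:29040246-29040545 (GRCm38.p6), are printed on the minus strand, which codes for Ryr1, and hold the 105 bases of exon 87, in capitals, with intron sequence on both sides.
Ryr1, intragenic Spin1 peak: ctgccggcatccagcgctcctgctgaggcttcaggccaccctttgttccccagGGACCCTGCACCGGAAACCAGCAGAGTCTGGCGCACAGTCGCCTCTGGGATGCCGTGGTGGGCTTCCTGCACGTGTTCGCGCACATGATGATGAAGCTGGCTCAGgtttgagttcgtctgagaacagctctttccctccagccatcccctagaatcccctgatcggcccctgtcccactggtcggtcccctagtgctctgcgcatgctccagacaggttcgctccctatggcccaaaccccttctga

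This stretch had 14 CpGs and an observed to expected ratio of 0.51. Over the central 300 bases of the 5309 Spin1 peaks at no promoter, the median ratio was 0.29. On either strand, it held no CAGCTG (found in 20.4% of those peaks), no CACCTG (16.1%), no GGGCGG (17.0%) and no TATAAA (11.3%). Other E-box sequences were not searched, and the printed exon holds CACGTG.

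**Figure D3:**
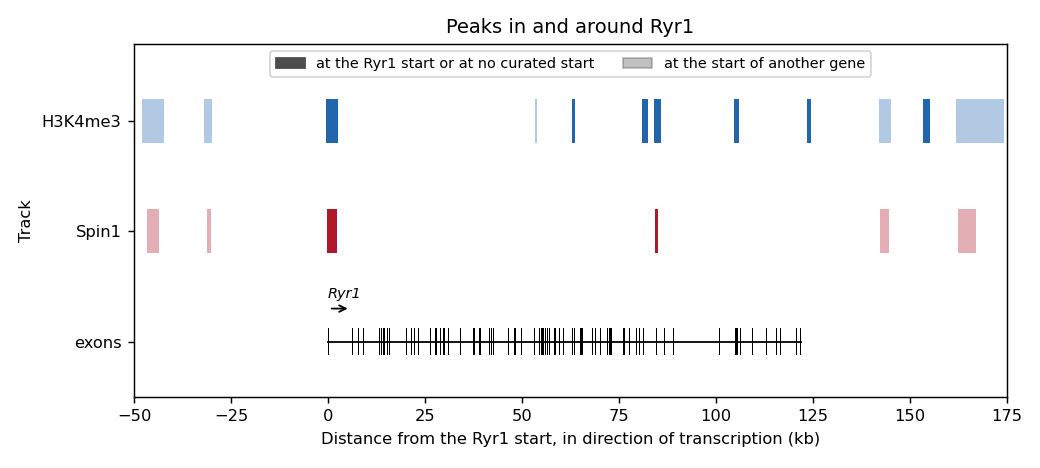
The Ryr1 locus from 50 kb upstream of the start to beyond 50 kb downstream of the gene, in kb from the TSS and in the direction of transcription, with H3K4me3 peaks (blue), Spin1 peaks (red) and the 106 exons (black). Pale boxes are peaks at the promoters of other genes. Of the 4 H3K4me3 peaks at no curated promoter inside the gene, 1 carries Spin1.

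Within 50 kb of the 10 genes lay 29 Spin1 peaks, of which 8 were at the promoters described above, 15 at the promoters of other genes, 2 in the gene bodies of Ryr1 and Trdn, and 4 in the flanks at no promoter. Of these 29 peaks, 26 overlapped H3K4me3 (89.7%, exact 95% interval from 72.6 to 97.8%, for counting error only), compared with 91.3% of all 17106 Spin1 peaks. The interval takes the peaks as independent, which neighbouring peaks of a locus need not be, and holds no spread between cultures. The 3 Spin1 peaks without H3K4me3 were weak. A pair of them lay in Vangl1, downstream of Casq2 (scores 105.3 and 113.2), and the other in Tmem9, upstream of Cacna1s (93.18). A Spin1 peak with H3K4me3 and no curated promoter was found in Kif21b, 87.1 kb from the Cacna1s start (Spin1 score 148.7, H3K4me3 score 3100). The same search found 52 H3K4me3 peaks, 11 at the promoters of the 10 genes, 18 at those of other genes, 9 in the gene bodies and 14 in the flanks. Spin1 overlapped 26 of the 52 and 2 of the 23 at no promoter. The matching shares over all 30763 H3K4me3 peaks were not computed, so these counts describe the listed peaks only. GENCODE places a transcript start within 1 kb of 4 of these 23 peaks and of 1 of the 6 Spin1 peaks at no promoter, that of Trdn.

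The spacing of neighbouring promoters differed between the genes. Atp2a1 had 5 Spin1 peaks at other promoters, those of Nfatc2ip, Rabep2, Sh2b1, Tufm and Atxn2l, all with H3K4me3. Ryr1 had 4, at Actn4, Fam98c, the shared start region of Eif3k and Map4k1, and that of Spred3 and Ggn. Casq1 had 1 at Pea15a (2866 bp, score 3100), 12.7 kb downstream of its own start, where Casq1 itself had a Spin1 score of 103.6. Atp2a2 had 1 at Anapc7, and Cacna1s had 3, of which 2 lay at starts of Tmem9 and 1 at that of Kif21b and Gm15850. An H3K4me3 peak of 1723 bp with a score of 2728 lay at −20.4 to −18.6 kb from the Atp2a1 start, at no annotated start and without Spin1. Ryr3, Trdn, Jph1 and Casq2 had no Spin1 peak at a neighbouring promoter within 50 kb.

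Other genes of calcium handling were read in the same way. Of 36 genes, 28 had Spin1 and 32 had H3K4me3 at the promoter, against 56.7% and 68.0% of protein-coding genes. In 4 genes neither was found, and 4 had H3K4me3 only. The list of SR pumps and regulators had Spin1 at 0 of 4 genes. Atp2a3, the SERCA3 gene, and Mrln, which encodes the pump inhibitor myoregulin, had H3K4me3 (1612 and 2173 bp). Sln and Pln, the genes of the pump inhibitors sarcolipin and phospholamban, had neither peak.

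Among release channels and their partners, 9 of 10 genes had Spin1 and 10 had H3K4me3. Ryr2, the ryanodine receptor of heart, was the exception, with an H3K4me3 peak of 2204 bp (score 3100) and no Spin1, whereas Ryr3 had the weak Spin1 peak described above. The IP3 receptor genes Itpr1, Itpr2 and Itpr3 had Spin1 scores of 1554, 1750 and 1324. Fkbp1a and Fkbp1b, whose products bind the ryanodine receptor, had scores of 3100 and 1183. The calmodulin genes Calm2 and Calm3 had 3100 each, and S100a1 and Sri, which encode the calcium sensors S100A1 and sorcin, had 490.6 and 2352.

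The 5 genes listed as L-type channel subunits and couplers had both peaks. They were Cacna2d1, Cacnb1 and Cacng1, which encode auxiliary subunits, Cacna1c, the pore subunit of heart, and Stac3, an adaptor of the skeletal channel. Their Spin1 scores lay between 2165 and 3100, compared with 253.3 at Cacna1s. Of the genes for the junction and the SR lumen, 9 of 10 had Spin1 and 10 had H3K4me3. Jph2, the paralog of Jph1, had a Spin1 peak of 6665 bp within 8784 bp of H3K4me3, compared with 1876 bp within 3696 bp at Jph1. Bin1 (5240 bp), Asph, Srl, Tmem38a, Tmem38b and Calr had Spin1 scores of 1295 or more. Hrc and Jsrp1 had 582.6 and 358.7. Sypl2, which encodes mitsugumin 29, had H3K4me3 alone.

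For refilling of the store and transport at the surface, 4 of 6 genes had both peaks. These were Stim1 and Orai1, the sensor and the channel of store-operated entry, the plasma membrane pump gene Atp2b1, and the exchanger gene Slc8a3. Atp2b4 and Slc8a1 had neither. Mcu, the channel gene for uptake into mitochondria, had Spin1 (score 3100) and H3K4me3.

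**Figure D4:**
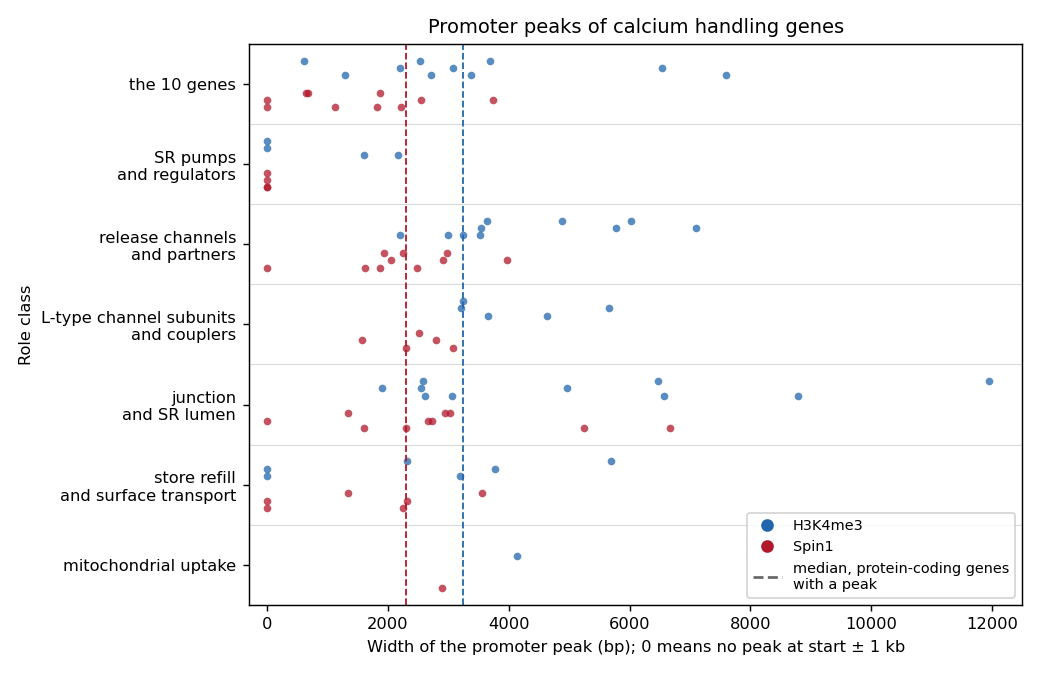
Width in bp of the promoter peaks of the 10 genes and of 36 other calcium handling genes by role class (SR, sarcoplasmic reticulum), 1 point per gene for H3K4me3 (blue) and Spin1 (red), with 0 for no peak at TSS±1 kb. Dashed lines are the medians over protein-coding genes with a peak. No gene of the SR pumps and regulators class has Spin1. The pump genes Atp2a1 and Atp2a2, which have it, are counted among the 10 genes. Jph2 has the widest Spin1 peak with 6665 bp.

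The label of the cells was checked at marker promoters. All 6 myoblast markers (Myod1, Myf5, Pax7, Des, Cdh15 and Itga7) had both peaks, as did 56.7% of all protein-coding genes. Of 5 genes of differentiated fibers, Acta1 and Mylpf had both, Ckm and Myh1 had H3K4me3 only, and Myh4 had neither. The fibroblast genes Pdgfra and Col1a1 had both peaks and Thy1 had H3K4me3. Pecam1, Ptprc, Gfap and Alb had none, and the H3K4me3 peaks of Cdh5 and Neurod1 had scores of 246.2 and 212.3. The part of fibroblasts in the peaks of the 10 genes was not tested.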

How the data were processed

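Spin1 and H3K4me3 peaks of primary myoblasts were analysed, with 1 library each. Per the labels and the study's methods, the authors aligned the read pairs with Bowtie2 (mm10), called peaks against input with MACS 1.4.2 and kept those with a false discovery rate of at most 1%. The authors deposited the position and the score of each peak, and the score is −10 times the log10 of the MACS p-value. It grows with depth, enrichment and width, so scores were compared within 1 list only. Neither file gives reads, so depth is unknown.

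Coordinates are given from 1. Peaks (17106 for Spin1, 30763 for H3K4me3) were compared with 45756 curated transcripts of RefSeq release 108.20200622, by an overlap of 1 bp. Where a promoter had several peaks, the one with the highest score was used. Percentiles give the share of protein-coding genes with a peak that had a lower value. Promoter sequences came from RefSeq, and sequence under a peak was read from GRCm38.p6. Transcript starts were also taken from GENCODE. The overlap code was tested on simulated data. The genes and lists were chosen with earlier results of these data known. All 10 genes are named, and 3 genes of the other lists are not reported here and enter no count. Alternatives were other windows, flanks, score thresholds, transcript sets and assignment by peak center. Python 3.11.15, NumPy 2.4.6, pandas 2.3.3 and matplotlib 3.10.9 were used.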

Additional observations from a re-analysis of the deposited data

How the results depend on the processing

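Of 53 alternatives to 10 results, 39 stayed within 1.5 times the reported count or within the interval of the share, and 14 did not. The window decided single genes. With TSS±0.5 kb, Casq1 and Casq2 lost Spin1, with 1 kb upstream to 0.1 kb downstream Casq2 lost it, and with TSS±2 kb Trdn gained it, which left 1 gene with Spin1 in the body outside promoters. With only the 50% of peaks with the highest scores, Spin1 remained at the promoters of 2 genes, Atp2a2 and Jph1, both marks at 2, Spin1 in the body of 0 and H3K4me3 in the body of 1, with 14 Spin1 and 26 H3K4me3 peaks within 50 kb. Casq1, Trdn and Pvalb then had no H3K4me3. With a score of at least 100, Casq1 lost H3K4me3, and 2 genes had H3K4me3 in the body. When the peak center had to lie in the window, 6 genes had H3K4me3 and 4 had both. A flank of 20 kb held 15 Spin1 peaks, of which 100% overlapped H3K4me3, and a flank of 100 kb held 47 Spin1 and 88 H3K4me3 peaks. No result changed direction, since none has one.

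No paired analysis was possible because each antibody has 1 library and no result comes from a test. The lists hold peaks above a threshold, and without read counts an absent peak, such as Spin1 at Pvalb, cannot be told apart from enrichment too weak for this depth. Scores at 3100 have no order. Spin1 and H3K4me3 came from the same chromatin preparation, and their peaks are not independent measurements of a promoter.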
